A study of Mus musculus with 4 samples.

Results

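The 7 genes Gap43, Elavl4, Bex1, Gpm6b, Pcdh17, Stmn2 and Stmn3 are best known from neurons, and were described here in the endocardium, cushion mesenchyme and neural cells of the mouse heart at E10.5. They are 7 of the 32285 genes counted. They were selected on these libraries, because in earlier results of the same data their levels were higher in mutant chamber endocardium or mesenchyme. The difference between genotypes in those cell types was therefore part of their selection, and it is given below as a description, without a test. Whole cardiogenic regions were dissociated and their single-cell transcriptomes read in 4 libraries (10x Genomics). The control libraries 5 and 7 are labelled Tie2flfl. The libraries 6 and 8 are labelled Nfatcre-Tie2flfl and are called Tie2-cko. All 4 carry the floxed Tie2 alleles (the gene Tek), and the Tie2-cko embryos also carry an Nfatc1-Cre, which deletes Tek in endocardial cells (EdCs) and in cells that descend from them. The background was 129 mixed with C57/BL6, and embryos of both sexes were used. The study uses the name Tie2-cko for its knock-in Nfatc1-Cre cross. By the methods, 2 hearts per genotype came from the same litter, but the labels do not say that each library is a separate heart. P-values below therefore measure the spread between 4 libraries, which may be technical.

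EdCs line the heart tube. Those over the chambers stay epithelial, and those over the atrioventricular canal and outflow tract form the cushions, where some transform into mesenchymal cells (MCs). Tie2 is an angiopoietin receptor of endothelial cells. Several proteins that neurons use to steer and extend axons are also made by cells outside the nervous system that migrate or change shape, so that a gene's association with neurons does not by itself name a cell.

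Gap43 encodes a membrane-bound protein of growth cones and its gene lies on chromosome 16 (chr16:42248442-42340651, minus strand, GRCm38). Elavl4, also called HuD, encodes a neuronal RNA-binding protein that stabilises mRNAs, at chr4:110203722-110351909 on the minus strand. Bex1 encodes a small brain-expressed adaptor protein and is X-linked, at chrX:136213972-136215513 on the minus strand. Gpm6b, at chrX:166238911-166388988 on the plus strand, encodes a membrane glycoprotein of neurons and glia. Pcdh17 encodes a protocadherin, a cell adhesion molecule, at chr14:84443563-84539002 on the plus strand. Stmn2 and Stmn3 encode stathmins, which bind tubulin and regulate microtubules. Stmn2 lies at chr3:8509360-8561606 on the plus strand and Stmn3 at chr2:181306459-181314500 on the minus strand. All 7 are annotated as protein-coding genes in GENCODE M21.

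The 250 bases before the annotated start are shown for Elavl4, Gpm6b and Pcdh17, the 3 genes with the largest fitted differences in chamber EdCs (below). The letters are from RefSeq on GRCm38.p6, written 5′ to 3′ along the gene, with CG dinucleotides in capitals. For Elavl4, which has 4 annotated starts, the outermost was taken (chr4:110351912-110352161, minus strand). The windows of Gpm6b and Pcdh17 are chrX:166238693-166238942 and chr14:84443313-84443562, both on the plus strand.
Elavl4: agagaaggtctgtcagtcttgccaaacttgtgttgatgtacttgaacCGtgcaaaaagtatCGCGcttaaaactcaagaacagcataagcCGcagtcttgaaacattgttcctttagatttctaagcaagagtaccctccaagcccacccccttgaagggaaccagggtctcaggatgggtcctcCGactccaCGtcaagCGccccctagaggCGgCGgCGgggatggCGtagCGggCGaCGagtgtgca
Gpm6b: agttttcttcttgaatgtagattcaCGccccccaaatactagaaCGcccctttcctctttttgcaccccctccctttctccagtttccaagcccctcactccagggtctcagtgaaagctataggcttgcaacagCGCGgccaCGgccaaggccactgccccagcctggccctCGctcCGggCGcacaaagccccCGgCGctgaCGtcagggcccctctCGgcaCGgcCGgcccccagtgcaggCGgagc
Pcdh17: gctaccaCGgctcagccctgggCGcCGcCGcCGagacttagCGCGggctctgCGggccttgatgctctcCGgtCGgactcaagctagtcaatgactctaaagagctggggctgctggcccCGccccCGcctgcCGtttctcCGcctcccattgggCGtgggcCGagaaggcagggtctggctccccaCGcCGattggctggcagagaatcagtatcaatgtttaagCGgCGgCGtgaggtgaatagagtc
These windows hold 14, 15 and 21 CG dinucleotides, against a median of 6 in 32851 RefSeq windows of this length. The other 3 Elavl4 starts, Bex1 and Stmn3 have 3 to 5, so that a high CG content is not shared by all members. In the windows of Elavl4, Bex1, Gpm6b, Pcdh17 and Stmn3, 5 motifs were searched on both strands. These were TTCAGCACC and GGACAGC, the left and right parts of the site of the neuronal repressor REST, the FOXO core TGTTTAC, the ETS site CCGGAAGT and TATAAA. None of these letters occurred in any of the windows, where 0.301%, 5.28%, 3.17%, 2.88% and 12.4% of all windows hold them. The counts do not resolve which start was used in these cells.

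After filtering, 33419 cells remained, 5684 to 10097 per library, with a median of 14898 to 25740 UMIs per cell. They formed 28 clusters, which were named from marker genes. The 7 genes and Tek had been left out of the genes used for clustering. Chamber EdCs numbered 382, 139, 607 and 478 cells in libraries 5 to 8, cushion EdCs 248, 119, 425 and 417, and MCs 695, 285, 1242 and 1095. Libraries 5 and 6 stood apart, since 53.1% and 62.7% of their cells were outside the CM (cardiomyocyte), EdC, MC and epicardial types, against 26.1% and 24.7% in libraries 7 and 8. Pairs of libraries shared 12 to 29 kept barcodes. The level of Tek in chamber EdCs was 0.838 and 0.982 UMIs per 10000 in controls and 0.154 and 0.171 in Tie2-cko libraries. It fell by 2.53 ± 0.16 on the log2 scale (SE, 2 against 2 libraries, edgeR adjusted p = 0.00252), and was the single gene called of 11548 in chamber EdCs (0.00866%), where 796 had an unadjusted p below 0.05 and DESeq2 called 19.

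The genes did not share one cell type. A level is the gene's share of the summed UMIs of a cell type in 1 library, in UMIs per 10000, and means over the 4 libraries are given with their SD. Of the 11 named types ranked, neural cells had the highest mean level of Gap43, Elavl4 and Stmn3, cushion EdCs that of Gpm6b and Stmn2, a vascular-like endothelial cluster that of Pcdh17, and epithelial cells that of Bex1. The label neuronal therefore described the usual association of these genes, and only part of their pattern here.

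**Figure D1:**
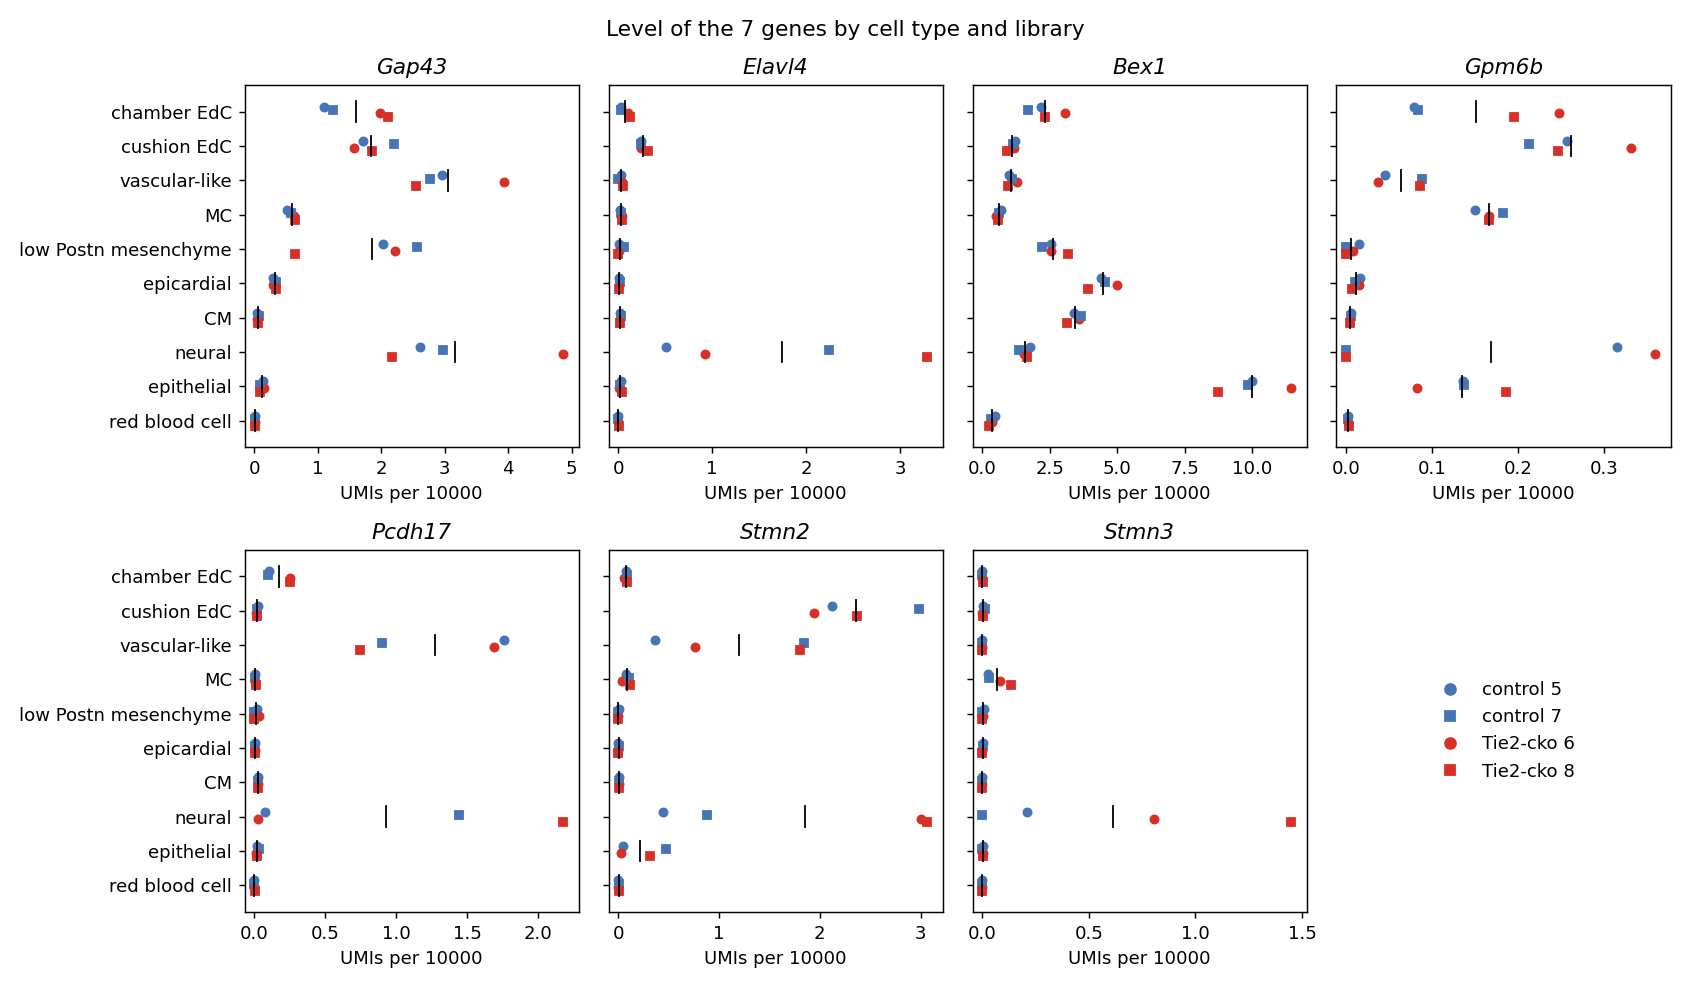
Level of each gene in 10 cell types. The x axes give UMIs per 10000 on linear scales that differ between panels, points are the 4 libraries and black bars their means. Stmn2 was high in cushion EdCs, Pcdh17 in vascular-like cells and Bex1 in epithelial cells, and the neural libraries lay far apart.

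The neural cluster was small and mixed. It held 74, 78, 14 and 19 cells in libraries 5 to 8, and was led among others by Nefm and Neurod1, genes of neurons and their precursors, and also by Sox10, a neural crest and glial factor. Its 8 neural markers were all present, with a summed level of 8.80, 19.9, 42.1 and 61.8 UMIs per 10000. The 4 markers of glia or neural crest, in contrast, were at 4.20, 5.03, 1.28 and 0.502, highest in libraries 5 and 6.
In these cells Elavl4 was at 0.508, 0.922, 2.24 and 3.29 UMIs per 10000, above its level in every other type in every library. Pcdh17 was at 0.0770, 0.0270, 1.44 and 2.17, low in the libraries with more glial marker. Gpm6b, a gene also used by glia, had the opposite pattern, with 0.316 and 0.360 in libraries 5 and 6 and no UMI in libraries 7 and 8. The differences of Pcdh17 and Gpm6b lay mainly between libraries 5 and 6 on one side and 7 and 8 on the other. Elavl4 differed between these sides too, but library 6 was also above library 5 and library 8 above library 7.
Stmn2 in neural cells was carried by few of them. Its level was 0.446, 3.0, 0.882 and 3.07 UMIs per 10000, higher in both Tie2-cko libraries, but only 6, 7, 2 and 5 cells held it. In library 6, 667 UMIs came from 7 cells, or 95.3 per holding cell. Stmn3 was similar, with 27, 179, 0 and 26 UMIs in 8, 9, 0 and 8 neural cells. With 14 and 19 cells in libraries 7 and 8, no comparison of genotypes was made in neural cells.

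Gap43 was highest in neural cells (3.16 ± 1.18 UMIs per 10000, SD, n = 4) and vascular-like cells (3.05 ± 0.612), followed by mesenchyme low in Postn (1.86 ± 0.844), cushion EdCs (1.83 ± 0.270) and chamber EdCs (1.61 ± 0.508). Each of these 5 types overlapped its neighbour in the order over the 4 libraries. Mesenchyme low in Postn held only 139, 165, 11 and 3 cells in libraries 5 to 8, and its lowest level (0.635) was that of library 8. MCs lay below chamber EdCs without overlap (0.588 ± 0.0550), then epicardial cells (0.319 ± 0.0238), epithelial cells (0.120 ± 0.0350) and CMs (0.0567 ± 0.0125).
Elavl4 was at 1.74 ± 1.27 UMIs per 10000 in neural cells, 0.262 ± 0.0378 in cushion EdCs and 0.0733 ± 0.0486 in chamber EdCs, 3 steps that did not overlap. MCs (0.0309 ± 0.00972) overlapped chamber EdCs. Cushion EdCs were thus the non-neural type with the highest level, 3.57 times the chamber mean.
Gpm6b was at 0.263 ± 0.0501 UMIs per 10000 in cushion EdCs, 0.169 ± 0.196 in neural cells, 0.167 ± 0.0130 in MCs and 0.152 ± 0.0835 in chamber EdCs, with overlap at each step. CMs (0.00490 ± 0.00113) and epicardial cells (0.0118 ± 0.00438) were far lower.

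Stmn2 separated the endocardial types. It was at 2.13, 1.95, 2.98 and 2.37 UMIs per 10000 in cushion EdCs of libraries 5 to 8, and at 0.0781, 0.0576, 0.0826 and 0.0913 in chamber EdCs. The lowest cushion library lay far above the highest chamber library, and the ratio of means was 30.4. Stmn2 was among the 10 genes that led the cushion cluster, although it had taken no part in the clustering.
Stmn2 was held by many cushion EdCs, few of which held the neuronal tubulin gene Tubb3. In cells thinned to 5500 UMIs apiece, 48.0%, 40.7%, 50% and 44.6% of cushion EdCs held Stmn2 (unthinned 64.5%, 57.1%, 62.6% and 56.8%), and 10.2%, 4.17%, 9.80% and 5.06% of the holding cells also held Tubb3. Of the cushion EdCs without Stmn2, 7.03%, 11.4%, 6.86% and 5.88% held Tubb3, so that Tubb3 did not set the holding cells apart. Red blood cells, which should lack Stmn2, held it in 0.177%, 0%, 0.493% and 0% of thinned cells (unthinned 0.610%, 0.198%, 1.52% and 1.08%). Shares of 0 of 483 and 0 of 173 cells allow up to 0.621% and 1.73%, and these limits cover counting error only.
In the vascular-like cluster Stmn2 was at 0.369, 0.761, 1.85 and 1.80 UMIs per 10000, low in libraries 5 and 6. Neural cells (1.85 ± 1.38) overlapped both cushion EdCs (2.36 ± 0.453) and vascular-like cells (1.19 ± 0.745), which did not overlap each other.

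Pcdh17 had the reverse pattern within the endocardium. Its mean was 1.27 ± 0.523 UMIs per 10000 in vascular-like cells, 0.930 ± 1.06 in neural cells, 0.175 ± 0.0872 in chamber EdCs and 0.0181 ± 0.00442 in cushion EdCs. Chamber and cushion EdCs did not overlap, and the cushion mean was 0.103 times that of chamber EdCs.
Bex1 was found in all types. It was at 9.99 ± 1.12 UMIs per 10000 in epithelial cells, 4.46 ± 0.445 in epicardial cells, 3.43 ± 0.238 in CMs, 2.32 ± 0.576 in chamber EdCs, 1.59 ± 0.176 in neural cells, 1.12 ± 0.131 in cushion EdCs and 0.611 ± 0.0764 in MCs. An unnamed cluster led by Afp and Apoa2, genes of liver and yolk sac, had the highest level of any cluster (15.04 UMIs per 10000 over its cells). Red blood cells were at 0.260 to 0.485.
Stmn3 was found mainly in neural cells (0.616 ± 0.652 UMIs per 10000) and MCs (0.0693 ± 0.0485), which overlapped. It was at most 0.0128 in any library of the other types, and 0 in all libraries of vascular-like cells.

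In chamber EdCs, 5 of the 7 genes were higher in both Tie2-cko libraries than in either control, namely Gap43, Elavl4, Bex1, Gpm6b and Pcdh17. Of all 11548 genes tested there, 24.6% were higher in both. Since the members were picked for this difference, nothing is read from the count, nor from the size of a member's difference against its SE. Gap43 was at 1.10 and 1.25 UMIs per 10000 in controls and 1.98 and 2.11 in Tie2-cko libraries, counted over 818 to 1479 UMIs per library. The fitted difference was 0.75 ± 0.14 (log2, SE), and the groups did not overlap. The Tie2-cko libraries lay within the range of cushion EdCs (1.57 to 2.20), and both controls below it.
Elavl4 rested on fewer molecules, 24 and 31 UMIs in controls and 59 and 90 in Tie2-cko libraries. Its level was 0.0323 and 0.0324 UMIs per 10000 in controls, 0.100 and 0.128 in Tie2-cko libraries, a difference of 1.77 ± 0.26. Even the higher value stayed below the lowest cushion library (0.239).
Gpm6b was at 0.0795 and 0.0836 UMIs per 10000 in controls and 0.247 and 0.195 in Tie2-cko libraries, a difference of 1.38 ± 0.19. Library 6 lay within the range of cushion EdCs (0.213 to 0.332), library 8 just below it and both controls far below.
Pcdh17 was at 0.104 and 0.0961 UMIs per 10000 in controls, and at 0.251 in both Tie2-cko libraries, a difference of 1.28 ± 0.17. For this gene, low in cushion EdCs, the Tie2-cko libraries lay farther from the cushion level than the controls.
Bex1 had the closest groups, with 2.19 and 1.68 UMIs per 10000 in controls and 3.08 and 2.34 in Tie2-cko libraries, a difference of 0.43 ± 0.18. The gap between the lowest Tie2-cko and the highest control library was smaller than the gap between the 2 controls.
The stathmins did not share the pattern in chamber EdCs. Stmn2, the member most distinct between the endocardial types, was at 0.0781 and 0.0826 UMIs per 10000 in controls and 0.0576 and 0.0913 in Tie2-cko libraries, with overlap (-0.14 ± 0.28). Stmn3 had no UMI in 3 libraries and 2 in library 8, and did not pass the filter on low counts.

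**Figure D2:**
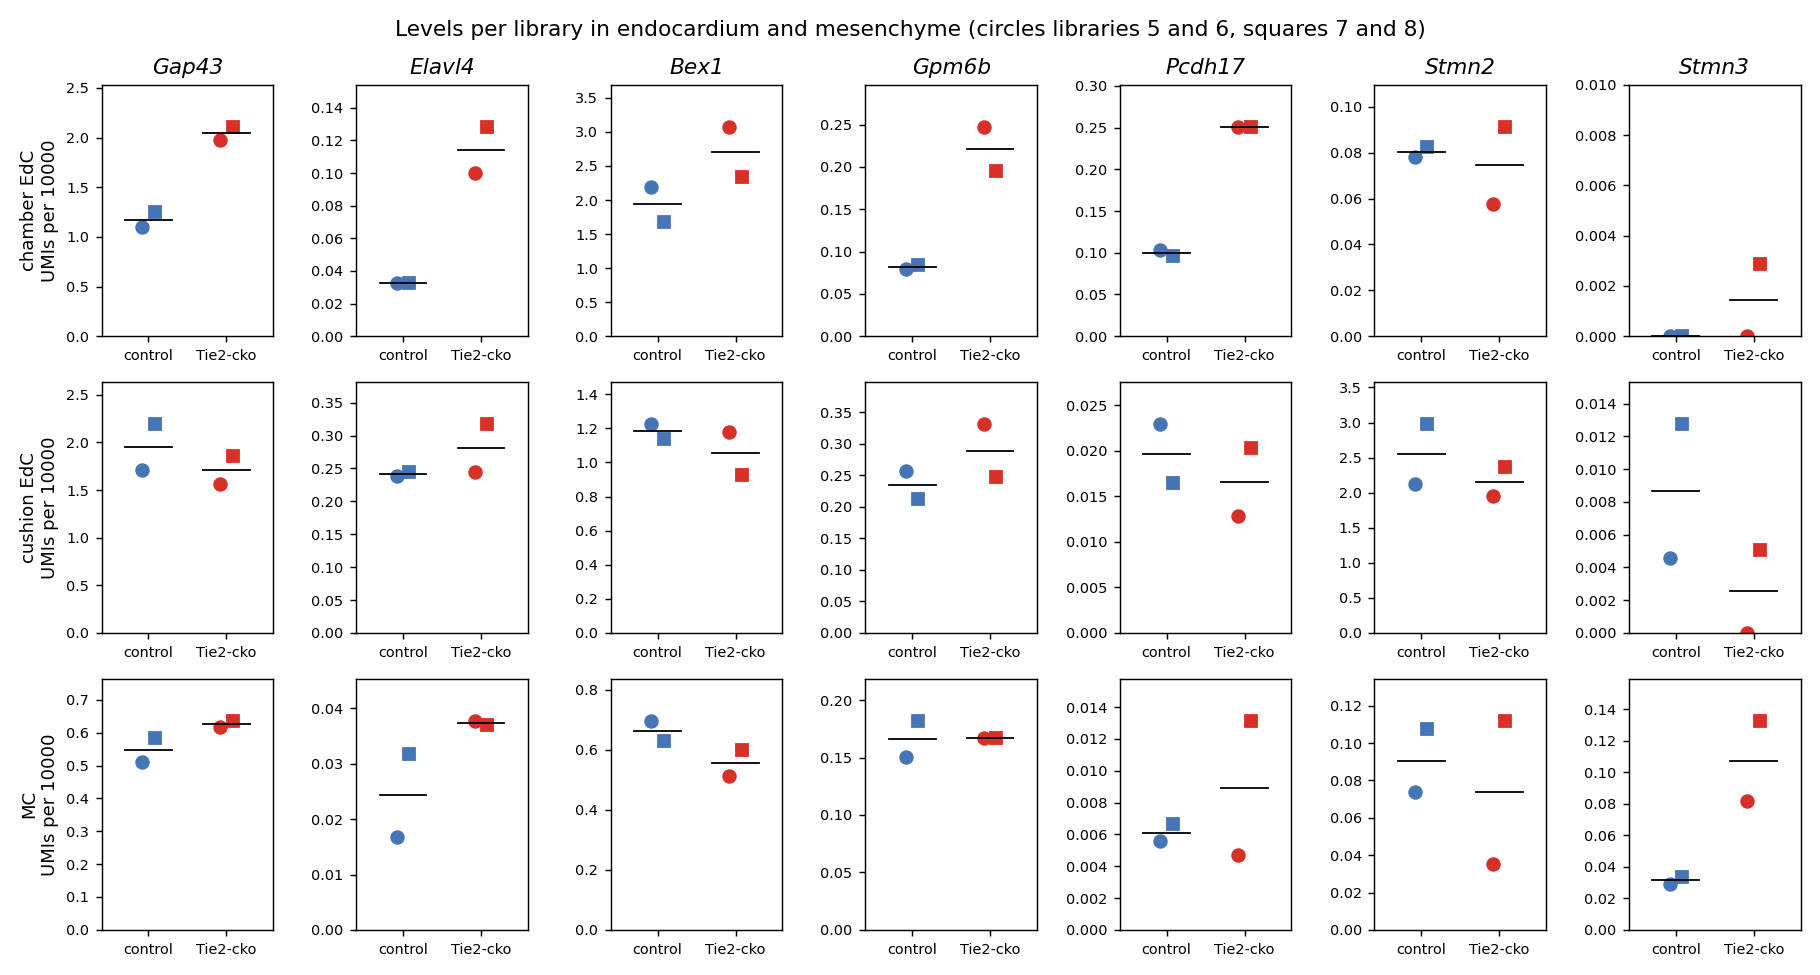
Levels in chamber EdCs, cushion EdCs and MCs, in UMIs per 10000, with axes from 0 that differ between panels. Points are libraries and bars group means. Gap43, Elavl4, Bex1, Gpm6b and Pcdh17 did not overlap between genotypes in chamber EdCs, nor did Gap43, Elavl4, Bex1 and Stmn3 in MCs.

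The shares of cells that held these genes describe the same contrast that chose them. After thinning to 5500 UMIs, Gap43 was held by 36.6% and 39.3% of control chamber EdCs and by 60.0% and 51.5% of Tie2-cko ones, with exact 95% intervals of 31.6% to 41.8%, 35.2% to 43.5%, 51.1% to 68.5% and 46.7% to 56.2%. Unthinned shares were 59.4%, 56.0%, 82.7% and 65.5%. Red blood cells held it in 0.207% to 1.16% of thinned and 2.9% to 4.9% of unthinned cells. Median depths were 14976, 27558, 12660 and 11099 UMIs in chamber EdCs of libraries 5 to 8, and 22799 to 60176 in red blood cells. In each library red blood cells were the deeper type, so that thinning cut their shares more.
Gpm6b was held by 2.77% and 5.13% of thinned control cells and by 13.8% and 10.1% of Tie2-cko cells (unthinned 12.8%, 11.0%, 46.8% and 21.6%). For Elavl4 the shares were 2.77% and 1.95% against 4.62% and 5.62% (unthinned 5.50%, 3.95%, 22.3% and 13.6%), and the intervals of libraries 5 and 6 overlapped widely. For Pcdh17 they were 6.09% and 3.19% against 10.0% and 7.64% (unthinned 13.6%, 9.56%, 28.8% and 15.3%), and the interval of library 5 overlapped those of libraries 6 and 8. In red blood cells these 3 genes were held by at most 0.578% of thinned and 1.19% of unthinned cells. Bex1 was held by 60.7% and 54.3% of thinned control cells and 73.1% and 66.1% of Tie2-cko cells (unthinned 85.6%, 75.5%, 90.6% and 82.0%). The interval of library 5 overlapped those of libraries 6 and 8. Red blood cells held Bex1 in 12.1% to 23.2% of thinned and 43.8% to 70.7% of unthinned cells. All of these intervals cover counting error only.

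Markers of other cells were read in the same chamber EdCs. The 8 neural markers summed to 0.0539 and 0.0679 UMIs per 10000 in controls and 0.0627 and 0.0656 in Tie2-cko libraries, with 1 of 8 higher in both Tie2-cko libraries and none at 0 over all libraries. In red blood cells, by comparison, the same list summed to 0.0406 to 0.0686. Without the 5 or 6 cells per library that held a UMI of neurofilament or other neuron-specific marker genes, the levels could hardly move, and were for Gap43 1.09 and 1.25 against 2.08 and 2.13 UMIs per 10000, and for Elavl4 0.0317 and 0.0329 against 0.107 and 0.124. The part of neural cells in the members' values was not tested.
Vascular genes were read in the same way, and their part in the members' values was not tested. The 6 genes that led the vascular-like cluster (Cldn5, Kcne3, Aplnr, Oit3, Clec1b and Sox17, chosen after their values were seen) summed to 0.535 and 0.358 UMIs per 10000 in control chamber EdCs and 0.936 and 0.682 in Tie2-cko ones, 3 of 6 being higher in both and none at 0. They summed to 6.23 to 9.43 in the vascular-like cells themselves. Chamber EdCs without a UMI of these genes numbered 201, 47, 401 and 278. This filter depends on depth, and removed 47.4%, 66.2%, 33.9% and 41.8% of chamber EdCs in libraries 5 to 8, most in library 6, the deepest. It is also not independent of Pcdh17, since Oit3 was among the 3 genes most like Pcdh17 over cell types (below). In the cells left, Pcdh17 was at 0.0623 and 0.0582 against 0.130 and 0.0939, a difference of 0.77 in place of 1.28. Gap43 was at 0.987 and 1.15 against 1.70 and 1.61, a difference of 0.57 in place of 0.75. Elavl4 (0.0295 and 0.0357 against 0.111 and 0.114) and Gpm6b (0.0623 and 0.0789 against 0.287 and 0.168) also did not overlap between genotypes in these cells. With the vascular-like cluster counted among chamber EdCs, 5 members were again higher in both Tie2-cko libraries, but Stmn2 took the place of Pcdh17.
Of the 5 cushion markers, 1 was higher in both Tie2-cko libraries in chamber EdCs, and they summed to 5.72 and 6.61 in controls and 5.15 and 5.40 in Tie2-cko libraries. The 5 red blood cell markers, which reach other cells as free RNA, were lower in both Tie2-cko libraries (9.74 and 8.86 against 81.1 and 29.3), and the part of free RNA in the members' values was not tested. The mean chamber level was 23.3 (Stmn2) to 161 (Pcdh17) times that of red blood cells for 5 of the genes, and 6.48 times for Bex1. In red blood cells, however, the 5 red blood cell markers alone took 3646 to 3902 UMIs per 10000, which lowers the level of other genes there. Fewer cells of a kind and less RNA per cell cannot be told apart in such sums.

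In cushion EdCs, whose genotype contrast had no part in the selection, none of the 5 genes with enough counts passed the test. Gap43 was at 1.71 and 2.20 UMIs per 10000 in controls and 1.57 and 1.86 in Tie2-cko libraries (-0.23 ± 0.17, log2, SE). Stmn2 was at 2.13 and 2.98 against 1.95 and 2.37 (-0.29 ± 0.19). Gpm6b was at 0.257 and 0.213 against 0.332 and 0.247 (0.24 ± 0.19), with overlapping groups in all 3 cases.
Bex1 was at 1.23 and 1.14 UMIs per 10000 in controls and 1.18 and 0.929 in Tie2-cko libraries (-0.22 ± 0.14). Elavl4 was the only member higher in both Tie2-cko libraries, at 0.245 and 0.318 against 0.239 and 0.244 (0.19 ± 0.19), where library 6 exceeded the higher control by less than the controls differed. Among all 11264 genes tested, 19% were higher in both. Pcdh17 (5 to 12 UMIs per library) and Stmn3 (0 to 7) did not pass the filter.
None of the 5 members tested was called by edgeR (each adjusted p = 0.9998), none had an unadjusted p below 0.05, and DESeq2 called none. In the same fit, 2 genes were called (0.0178%), 202 had an unadjusted p below 0.05 and DESeq2 called 7. Tek was one of the 2, and fell by 2.49 ± 0.28 (edgeR adjusted p = 0.0400). A difference of the genotype effect between chamber and cushion EdCs was not tested, since the chamber values chose the genes.

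**Figure D3:**
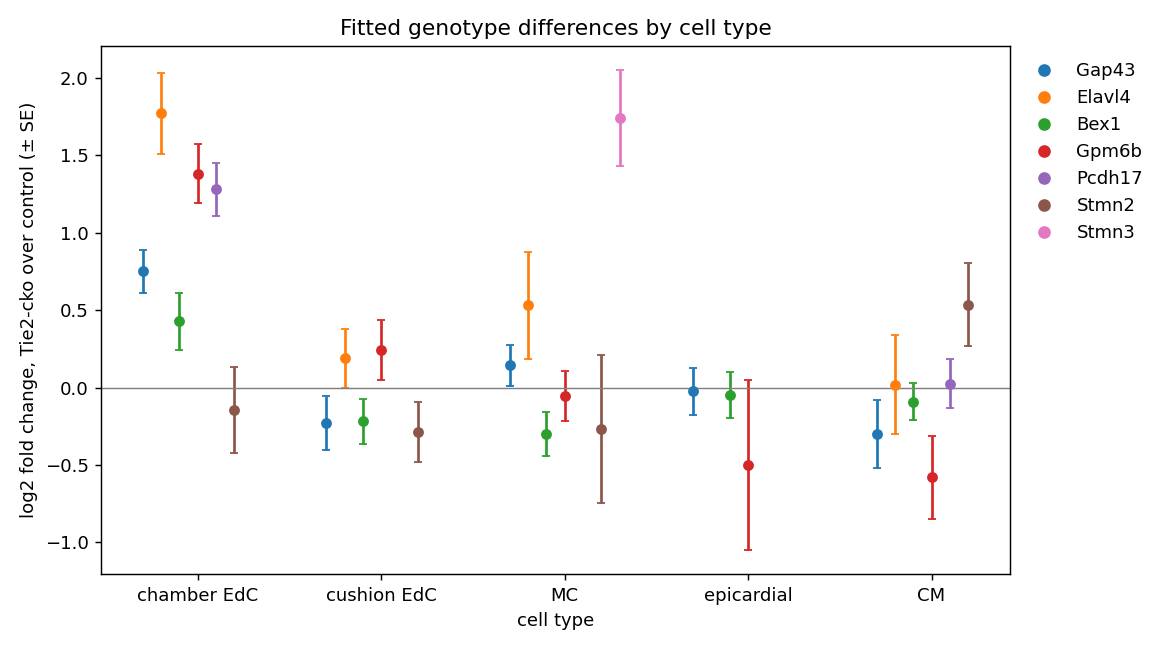
Fitted log2 fold change of Tie2-cko over control libraries for the members that passed the filter on low counts in 5 cell types, with standard errors. The values in chamber EdCs and MCs chose the genes and carry no test. In cushion EdCs, epicardial cells and CMs no member passed the threshold.

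In MCs, Gap43, Elavl4 and Stmn3 were higher in both Tie2-cko libraries, against 17.5% of all 12667 genes tested, a contrast that was also part of the selection. Over all genes edgeR called 0 (0%), 128 had an unadjusted p below 0.05 and DESeq2 called 10. Stmn3 was at 0.0290 and 0.0338 UMIs per 10000 in controls and 0.0816 and 0.133 in Tie2-cko libraries, from 31, 51, 69 and 212 UMIs. The fitted difference was 1.74 ± 0.31 (log2, SE). As in chamber EdCs, nothing is read from the size of a member's difference against its SE.
Gap43 (0.512 and 0.584 against 0.618 and 0.637, a difference of 0.14 ± 0.13) and Elavl4 (0.0168 and 0.0318 against 0.0378 and 0.0370, a difference of 0.53 ± 0.34) were separated by small gaps. The Gap43 value ranged from 0.05 without control library 5 to 0.25 without control library 7 (0.06 without Tie2-cko library 8), and that of Elavl4 from 0.18 to 1.11 without the same 2 controls. Bex1 was lower in both Tie2-cko libraries, at 0.514 and 0.599 against 0.698 and 0.631 (-0.30 ± 0.14). Gpm6b (0.150 and 0.182 against 0.167 in both) and Stmn2 (0.0738 and 0.107 against 0.0355 and 0.112) overlapped, and Pcdh17 had 4 to 21 UMIs per library.

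Stmn3 in mesenchyme belonged to 1 of the 3 MC clusters. Of its 363 UMIs in MCs, 322 (88.7%) were in cluster 17, which was led by Stmn4, another stathmin, Inhba, the activin A subunit, L1cam, a neural adhesion molecule, and Postn, and by Meox1 and Gata3. Within this cluster Stmn3 was at 0.124 and 0.160 UMIs per 10000 in controls and 0.270 and 0.412 in Tie2-cko libraries, a difference of 1.25. In clusters 5 and 14 it was at 0.0362 or less. It was held by 14 of 149 and 20 of 204 control cells of cluster 17, and by 16 of 80 and 44 of 274 Tie2-cko cells, with 2.14 and 2.15 UMIs per holding cell against 4.19 and 4.14. Median depths of this cluster were 15550, 30829, 12352 and 14920 UMIs in libraries 5 to 8.
The cluster also held more of the Tie2-cko MCs, 28.1% and 25.0% of them against 21.4% and 16.4% in controls. Of its leading genes, 6 (Stmn4, Inhba, L1cam, Meox1, Gata3 and Dkk1, chosen after their values were seen), summed over all MCs, were at 3.20 and 2.88 UMIs per 10000 in Tie2-cko libraries and 2.21 and 2.09 in controls, with all 6 higher in both. The share of cells and the level within them therefore both moved with the difference over all MCs, and their parts were not tested. Restricted to cluster 17, a choice made after the data were seen, Gpm6b was at 0.0785 and 0.101 in controls and 0.133 and 0.131 in Tie2-cko libraries.
The 8 neural markers summed to 1.33 and 1.45 in MCs of control libraries and 1.71 and 1.497 in Tie2-cko libraries, with 2 of 8 higher in both and none at 0. Most of this was Tubb3, a neuronal tubulin, which was itself at 1.18 to 1.53 in MCs.

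**Figure D4:**
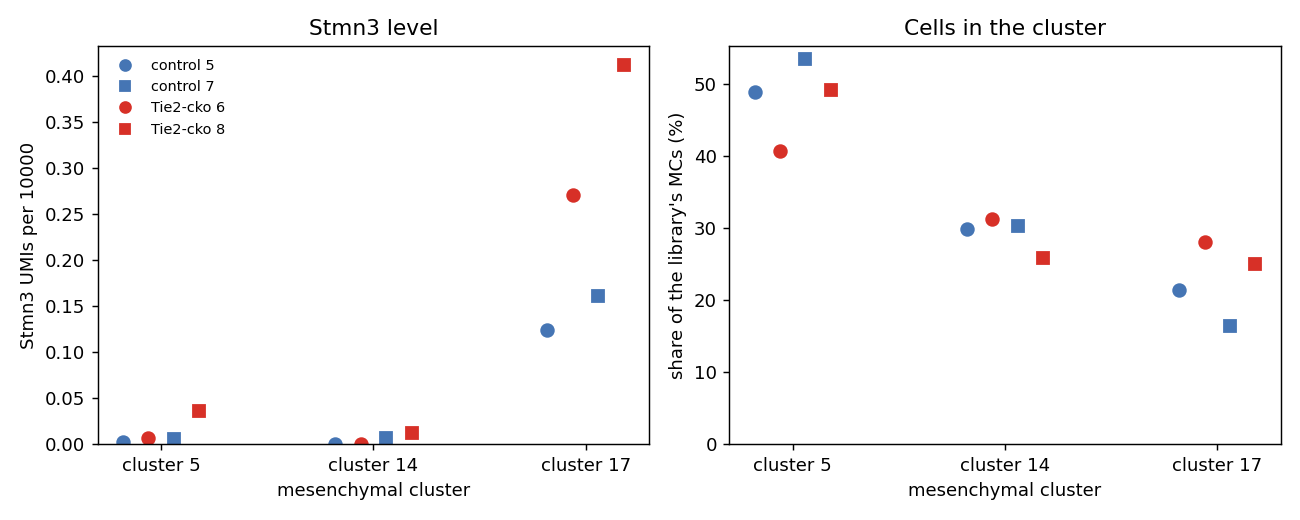
Stmn3 in the 3 MC clusters. The left panel gives its level per library in UMIs per 10000, and the right panel the share of the library's MCs that fell in the cluster, in percent. Cluster 17 held 88.7% of the Stmn3 UMIs and took a larger share of MCs in both Tie2-cko libraries.

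In CMs and epicardial cells no member was called. In CMs, 6 members were tested, with differences from -0.58 ± 0.27 (Gpm6b) to 0.53 ± 0.27 (Stmn2) and edgeR adjusted p = 1 for each. Both rested on few molecules, 32 to 64 UMIs per library for Gpm6b and 42 to 71 for Stmn2, in 1406 to 4251 cells. Bex1, with 29673 to 36976 UMIs per library, was at 3.39 and 3.66 UMIs per 10000 in controls and 3.56 and 3.12 in Tie2-cko libraries (-0.09 ± 0.12). Over all 15559 genes edgeR called 0 (0%), 59 had an unadjusted p below 0.05, none of them a member, and DESeq2 called 2.
In epicardial cells, Gap43 (0.298 and 0.342 against 0.299 and 0.338 UMIs per 10000) and Bex1 (4.41 and 4.54 against 4.98 and 3.90) overlapped, and Gpm6b was counted at 9 to 13 UMIs per library. Each had an edgeR adjusted p = 0.9999. Of the 11904 genes tested, 5 were called (0.042%), 128 had an unadjusted p below 0.05, none of them a member, and DESeq2 called 7.

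Genes related to the 7 by role were read in the same fits, in lists drawn up with earlier results known. None passed the threshold in chamber EdCs, cushion EdCs, MCs, CMs or epicardial cells by edgeR. In chamber EdCs, 5 of 15 pan-neuronal genes had enough counts to be tested and none was called. Of these 5, 2 were higher in both Tie2-cko libraries, against 24.6% of all genes tested. The differences ranged from -0.65 (Isl1) to 0.96 (Rtn1), with a median of 0.60 beside 0.0051 over all genes. That median was the value of Tubb3 (0.60 ± 0.52). Tubb3 was at 0.0108 and 0.0157 UMIs per 10000 in controls and 0.0305 and 0.0128 in Tie2-cko libraries, with overlap. Map1b, a microtubule-associated protein and the most abundant of the list in chamber EdCs, was at 1.92 and 1.76 UMIs per 10000 in controls and 3.35 and 2.58 in Tie2-cko libraries (0.64 ± 0.15, edgeR adjusted p = 0.369). Uchl1, a neuronal deubiquitinase, was at 0.109 and 0.106 against 0.117 and 0.144. Rtn1, a reticulon, was at 0.0916 and 0.0648 against 0.0881 and 0.220, so that library 8 alone was high. Isl1, a factor of motor neurons and of cardiac progenitors, was at 0.0337 and 0.0470 against 0.0153 and 0.0371.
Of 23 relatives of the 7 genes, 14 were tested in chamber EdCs, none was called, and the median difference was 0.08. Of the 14, 6 were higher in both Tie2-cko libraries, against 24.6% of all genes tested, and 1 was lower in both. The share of all genes lower in both was not computed. Bex3, the most abundant, was at 8.52 and 7.29 in controls and 9.81 and 8.97 in Tie2-cko libraries, and Bex4 at 2.51 and 2.32 against 3.08 and 3.03. Stmn1, the stathmin of dividing cells, was at 6.23 and 5.42 against 6.68 and 3.37, and was lowest in library 8 in cushion EdCs and MCs too. Marcks, a kinase substrate at the membrane, was at 6.55 and 6.98 against 7.56 and 7.14, and Marcksl1 at 4.64 and 5.32 against 5.10 and 4.92. Elavl2, a neuronal relative of Elavl4, was at 0.0418 in both controls and at 0.0559 and 0.0827 in Tie2-cko libraries.
Of 6 neural crest and glial genes 1 was tested in chamber EdCs and none was called, and Sox10 had no UMI in 3 of the 4 libraries. Erbb3, the neuregulin receptor of glia, and Fabp7, a fatty acid binding protein of glia, were at most 0.0128 and 0.00713. All 8 genes of the REST complex were tested, none was called and none separated the genotypes, with a median of -0.02. Of all genes tested in chamber EdCs, 24.6% were higher in both Tie2-cko libraries. Rest itself was at 0.966 and 0.867 UMIs per 10000 in controls and 1.11 and 0.933 in Tie2-cko libraries, and its partners Hdac1 at 2.02 and 1.77 against 2.09 and 1.68, Kdm1a at 1.33 and 1.49 against 1.46 and 1.43, and Hdac2 at 0.890 and 1.05 against 1.00 and 0.940.
In cushion EdCs 6, 13, 2 and 8 genes of the 4 lists were tested, and in MCs 9, 17, 4 and 8, with none called. Of these, 1, 5, 1 and 3 were higher in both Tie2-cko libraries in cushion EdCs, against 19% of all genes tested. In MCs 1, 2, 1 and 1 were higher in both, against 17.5%. Lower in both were 0, 1, 0 and 0 in each of these cell types. Stmn4, the stathmin that led cluster 17, was at 0.480 and 0.475 in MCs of controls and 0.683 and 0.726 in Tie2-cko libraries (0.51 ± 0.12, edgeR adjusted p = 0.9998).

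The pattern of each gene was compared with that of 15769 genes over 40 sums of 11 cell types by library, by Pearson's r of log2(CPM + 1). These points share libraries and cell types, and r is a description. Sums of fewer than 20 cells were left out. This removed libraries 7 and 8 of neural cells (14 and 19 cells) and of mesenchyme low in Postn (11 and 3 cells). The neural points behind r were therefore only those of the libraries with more glial marker. Pcdh17 was most like Clec1a (r = 0.93), Tll1 (0.92) and Oit3 (0.92), and Gap43 most like Ets1 (0.91), Adamts1 (0.91) and BC037039 (0.91). Clec1a and Ets1 are genes of endothelial cells.
Stmn3 was most like Cdh19 (0.96), Scrg1 (0.93) and L1cam (0.93), the first a cadherin of the glial lineage. Stmn2 was most like Cabp1 (0.90), Peli2 (0.88) and Fxyd7 (0.86), Gpm6b like Astn1 (0.90), Peli2 (0.90) and Plcd1 (0.89), and Elavl4 like Heyl (0.83), Rgs16 (0.83) and Il1rl2 (0.82). Peli2 was thus in the leading 3 of both Stmn2 and Gpm6b. Bex1 was most like Pawr (0.92), Celsr1 (0.90) and Lypd6 (0.90).
Between the members, r was highest for Gpm6b and Stmn2 (0.78) and for Elavl4 and Gpm6b (0.75), both pairs being high in cushion EdCs. Bex1 had r between -0.14 and 0.12 with the other 6.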

How the data were processed

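The deposited values are UMI counts, 1 for each gene in each barcode. The authors produced them with Cell Ranger (6.1.2 by the file header, the methods naming another version) against mm10 by the submitters' processing notes, and no normalization was applied. The annotation behind the counts is not given in the sources used here. The authors' cell calling had been applied, and no correction for free RNA or doublets is stated. A barcode passed with 500 genes and 1000 UMIs or more and a mitochondrial share up to 10%, and those with the highest Scrublet scores (scanpy 1.11.5) were removed at 0.8% per 1000 barcodes. Seurat 5.3.0 clustered all libraries together on 2000 variable genes without the 7 members and Tek, at resolution 0.8 (30 principal components, 20 neighbours). A cluster was named for the marker list it expressed most fully (at least 3 markers and over 0.5 of the list). Endothelial clusters low in Nrg1, mesenchymal clusters low in Postn and clusters whose cells had a median depth below 0.333 of their own libraries' were kept apart, 3 rules set after the clusters were seen.

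Levels are UMIs per 10000 of the counts summed per library and cell type. Sums were tested with edgeR 4.0.16 (TMM, filterByExpr, quasi-likelihood test, Benjamini-Hochberg over all genes of a cell type, threshold 0.05), and with DESeq2 1.42.0 as an alternative, in R 4.3.3 with limma 3.58.1. A standard error is the size of the log2 fold change over the root of its F statistic. The fits were tested on simulated data. Shares of cells used cells thinned to 5500 UMIs with a fixed seed, and exact 95% binomial intervals. A share of 0 is given with the limit that 3 counts allow. Other tools were Python 3.11.15, numpy 2.4.6, scipy 1.17.1, pandas 2.3.3 and matplotlib 3.10.9. The largest total was 259775540 UMIs and the smallest 169361996, in 8877 to 18488 deposited barcodes.

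The members and lists were chosen with earlier results of these data known. All 7 members are named, with Tek, up to 4 genes per list of the highest mean level in chamber EdCs and any past the threshold, and the 3 genes most like each member. Bex4, Elavl2, Stmn4, Tubb3 and the genes that lead clusters were named after their values were seen. Promoter letters are from RefSeq (GRCm38.p6), with 5 of the 7 members matched, and gene positions from GENCODE M21 by identifier. Promoters of Gap43 and Stmn2 were not analysed here, and some genes of the lists are not reported here. Alternatives were a stricter cell filter (1500 genes, 5% mitochondrial UMIs), no doublet removal, resolution 0.4, cells without neural marker UMIs, other size factors, a block for libraries 5 and 6 against 7 and 8, no filter on low counts and each library left out.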

Additional observations from a re-analysis of the deposited data

Results flagged for a closer look

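Among the members that passed the filter on low counts in both cell types compared, 2 had both Tie2-cko libraries above both controls in one type and below both in another. The share of all genes with such a split was not computed, so nothing is read from this count. Bex1 had a log2 ratio of mean levels of 0.48 in chamber EdCs and -0.26 in MCs. Gpm6b had 1.44 in chamber EdCs and -0.57 in CMs, where it was counted at 32 to 64 UMIs per library. Neither difference between cell types was tested, and the chamber values had chosen both genes.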

How the results depend on the processing

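The labels give no replicate numbers shared between genotypes. A paired fit with a block for libraries 5 and 6 against 7 and 8, a pairing the labels do not give, raised the genes called from 1 to 702 in chamber EdCs, 2 to 45 in cushion EdCs, 0 to 105 in MCs, 0 to 55 in CMs and 5 to 67 in epicardial cells. Without the filter on low counts they numbered 158, 25, 23, 0 and 10, and by DESeq2 19, 7, 10, 2 and 7. With each library left out they ranged over 0 to 155, 12 to 66, 1 to 15, 0 to 3 and 7 to 70. Other cell filters gave 0 to 5 in cushion EdCs and 1 to 6 in epicardial cells. Of the settings chosen after the data were seen, chamber EdCs without vascular UMIs gave 9 and cluster 17 alone gave 5. Counting the vascular-like cluster as chamber EdCs gave 0. Of the listed genes the block called 4 in chamber EdCs (Bex4, Map1b, Rtn1 and Stmn1). Bex4 and Map1b were higher in the Tie2-cko library of both pairs, but Rtn1 and Stmn1 each went opposite ways. The level of Rtn1 was 0.0916, 0.0881, 0.0648 and 0.220 in libraries 5 to 8, and that of Stmn1 6.23, 6.68, 5.42 and 3.37. Their calls are therefore not read as a difference shared by both pairs. The block also called 1 in MCs (Stmn4) and 1 in CMs (Rcor2). With the block left out and nothing else changed, none of the listed genes was called in these types. Without the filter on low counts 2 were called in chamber EdCs (Map1b and Rtn1), and with each library left out 0 to 1 (Rtn1 without control library 5). In cushion EdCs, CMs and epicardial cells, the number of members called stayed 0 under each alternative run.

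The members higher in both Tie2-cko libraries numbered 5 to 7 in chamber EdCs and 3 to 5 in MCs with each library left out, the highest of both without Tie2-cko library 6. Leaving out a library can only keep or raise such a count, so nothing is read from these ranges. Without cells that held neural marker UMIs the members higher in both numbered 2 in MCs (Elavl4 and Stmn3). In cushion EdCs they numbered 1 to 2 with a library left out (2 without control library 5 or Tie2-cko library 8), 2 under the stricter cell filter and 3 without doublet removal, against 1. The difference of Elavl4 in cushion EdCs was -0.070 without Tie2-cko library 8 and 0.389 without library 6. In chamber EdCs, Gap43, Elavl4, Bex1, Gpm6b and Pcdh17 kept their sign in the 10 alternatives run for each, from 0.24 (Bex1) to 1.97 (Elavl4), and Stmn2 ranged from -0.56 to 0.19. The genes that kept their sign did not overlap between genotypes there, in the contrast that chose them. Leaving out a library could hardly reverse it, and the other alternatives reuse the same libraries, so nothing is read from the kept sign. Stmn3 in MCs ranged from 1.25 to 2.07, and Stmn2 there from -1.48 without library 8 to 0.29 without library 6. The causes were not tested.

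With 1 library left in a group, it is assumed to vary like the other group. At resolution 0.4 chamber and cushion EdCs were 1 cluster and gave no separate value. Depth limits Stmn3 and Elavl4 most, with 0 to 2 and 24 to 90 UMIs per library in chamber EdCs.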
